A study of Mus musculus with 26 samples.

Results

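Nodal-Activin signalling was described through 9 genes in E14, a line of mouse embryonic stem cells (mESCs): the ligand Nodal, its co-receptor Tdgf1 (Cripto), the type II receptor Acvr2b, the transducer Smad3, its DNA-binding partner Foxh1, the secreted antagonists Lefty1 and Lefty2, and the intracellular inhibitors Smad7 and Skil (SnoN). The genes were chosen by name, for their place in the pathway, from the 21938 protein-coding genes of the annotation. Earlier results of these data were known when they were chosen. For each gene, its row in the deposited expression table, the ATAC-seq peaks within 100 kb of the gene body and the dynamic enhancer regions in the same window were collected. The windows held 358 of the 179949 peaks found in either state.

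The study compared a pluripotent state, mESC+, in which the cells were kept in leukemia inhibitory factor (LIF), with a state that exits pluripotency, mESC−, in which LIF was withdrawn and 1 µM retinoic acid (RA) was given for 4 h. All cells grew for 48 h in medium with LIF, the treatment falling in the final 4 h, so the groups share everything but the last exchange of medium. RNA-seq comprised 3 libraries per state, ATAC-seq 1 library of 75000 cells per state, and the enhancer predictions rest on 1 library per state for each of 3 histone marks and the input. Removal of LIF and addition of RA came together and cannot be told apart, and as E14 is a single line, no other genetic background was measured.

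Nodal and the activins bind type I and type II serine/threonine kinase receptors, Nodal with the help of the co-receptor Cripto, and the receptors phosphorylate SMAD2 and SMAD3. These enter the nucleus with SMAD4 and are brought to DNA by partners, of which FOXH1 is the best known. Among the genes they switch on are Nodal itself and its own antagonists, so the pathway is known for feedback. Mouse embryonic stem cells are known to express Nodal, Cripto and the Lefty genes. RA acts through nuclear receptors that bind paired half-sites on DNA.

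The labelled cell type was checked with marker lists. Of 8 pluripotency genes, 7 had an ATAC-seq peak at the promoter in both states, and Esrrb had none within 1 kb of its annotated start. Of all protein-coding genes, 65.8% had a promoter peak in both lists, so such a peak alone says little of the cell type. Zfp42 and Sox2 were at percentiles 99.8 and 98.9 of expression per kb among the listed genes. Rows were missing for the other 6 pluripotency genes, Pou5f1 and Nanog among them, so the table could not be used to check these. Of 6 fibroblast markers, as feeder cells would carry, Thy1 and Pdgfrb were listed, at percentiles 26.3 and 20.7, and 4 of the 6 had a promoter peak in both lists. Of 5 primitive endoderm markers, Gata6 and Sox7 were listed, at percentiles 7.31 and 16.8, and 3 of the 5 had a promoter peak in both lists. The part of such cells in the results below was not tested. The RA target genes Cyp26a1, Rarb and Stra8 each had a row. Cyp26a1 and Stra8 had a promoter peak in both lists, and Rarb had none in either.

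The expression table gives, for each of 2189 genes, a mean normalised count over all 6 RNA-seq libraries, which is the authors' pooled value and carries no error here. It says how much transcript a gene had over both states together and nothing of the direction of change. Values per library were not analysed here. Of the 9 pathway genes, 6 had a row, against 9.04% of all protein-coding genes. Rows were missing for Acvr2b, Foxh1 and Lefty2, which are therefore without an expression value. A gene without a row is not shown to be silent, since genes known to be abundant in mESCs, such as Pou5f1, had none either.

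Among the 6 listed members, levels per kb of exon spanned a 51.2-fold range. Tdgf1, the co-receptor, had the highest mean normalised count of the 6, 13055, which is 4979 per kb of exon and percentile 99.2 of all listed genes. The antagonist Lefty1 had a mean count of 2470, or 1405 per kb (percentile 93.5). Nodal, the ligand, lay close to its antagonist, with a mean count of 2799, or 1336 per kb (percentile 93.0). Skil encodes a nuclear protein that holds SMAD complexes in check. It had the second highest raw mean, 10014, but more exon sequence, so that per kb it reached 1033 (percentile 89.9). The exon length used here is that of all annotated exons of a gene merged, and the levels per kb depend on this choice. Smad7, whose product blocks the activated receptor, had a mean count of 1631, or 361 per kb (percentile 71.2). Smad3 was the lowest, with a mean count of 539, or 97.2 per kb, and the only member under the median of all listed genes, 138 per kb. The order per kb was thus Tdgf1, Lefty1, Nodal, Skil, Smad7 and Smad3. No spread over samples is at hand to say which neighbours in this order differ, and with bulk RNA, fewer expressing cells and less RNA per cell cannot be told apart. Lefty1 and Lefty2 are close paralogs, and reads could be shared between them, which makes the Lefty1 level uncertain.

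**Figure D1:**
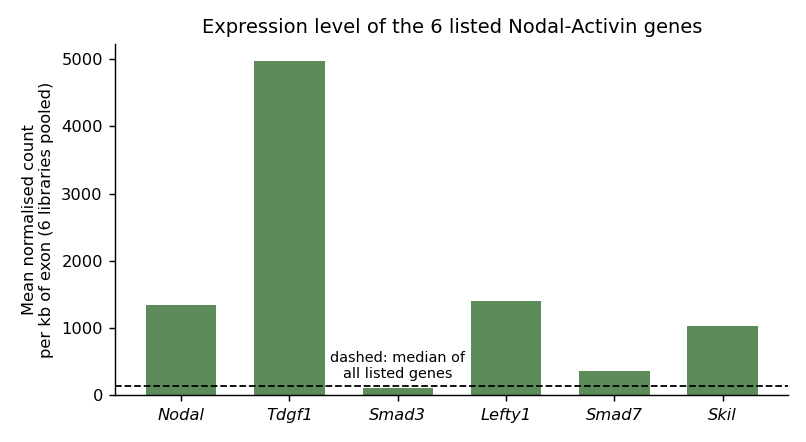
Mean normalised count per kb of exon (y axis, the authors' mean over 6 RNA-seq libraries, no error available) of the 6 listed genes, with a dashed line at the median of all listed genes. Tdgf1 stands at 4979, Nodal and Lefty1 at 1336 and 1405, and Smad3 at 97.2, below the line at 138.

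Of 41 other genes of the pathway, 11 had a row. They were the ligands Gdf3 (mean count 3677) and Inhbb (1889), the transducer Smad2 (2419), the partners Eomes (309) and Gtf2i (8306), the antagonists Inha (20.1), Ski (5545), Smurf1 (1612), Pmepa1 (1001) and Tgif1 (6227), and the target Otx2 (435). None of the 6 other receptors had a row. Gdf3, a ligand that also signals through Cripto, had 1517 per kb of exon, slightly above Nodal and Lefty1. Smad2, the sister of Smad3, had 276 per kb against 97.2 for Smad3. Ski, the paralog of Skil, stood at 997 per kb beside the 1033 of Skil. Of the other listed antagonists, Tgif1 had 1107 per kb, Smurf1 254, Pmepa1 204 and Inha 13.6.

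Accessible chromatin was compared next. Each state had 1 library, so differences between the states have no replicate check and carry no p-value. The peak lists give a fold enrichment over the local background, and from it and the −log10 p-value the whole number of reads or fragments at the summit (the pile-up) could be recovered for 100% of the peaks in both lists. The expected pile-up over the genome was 0.781 in mESC+ and 0.687 in mESC−, a depth ratio of 0.880. Intervals below are exact 95% Poisson intervals of the pile-up ratio after scaling by this depth ratio, and cover counting error only.

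Most of the promoters had a peak in both states. A peak within 1 kb of the gene start in both lists was found for 8 of the 9 genes (exact 95% binomial interval 51.8 to 99.7%), against 65.8% of all protein-coding genes, a share that the interval includes. At a −log10 q of at least 10 the count was 5 of 9, without Nodal, Foxh1, Lefty1 and Lefty2. In the full lists, Lefty2 alone lacked one at its annotated start, but had it at the start of another transcript. Thus 9 of 9 genes had such a peak when any transcript start was allowed. For neither of these settings was the share of all protein-coding genes at hand. Of the 41 other pathway genes, 38 had a promoter peak in both lists. Cer1, a secreted antagonist of Nodal, and Fgf8 had it in the mESC+ list alone, and Furin, a convertase that cleaves the Nodal precursor, had none in either. These 41 genes were scored at the annotated gene start only, and the strength of their peaks is not given here.

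The promoter peaks of Tdgf1, Lefty1 and Nodal, the members with the most transcript per kb, were weak by fold enrichment. The Nodal peak over the first exon, chr10:61418055-61418366 (GRCm38), had a fold enrichment of 4.22 in mESC+ and 3.29 in mESC−, at percentiles 11.0 and 1.01 of the lists. The Lefty1 peak had 5.18 and 4.71, at percentiles 29.8 and 16.8. Just beyond the 1 kb limit, however, a peak 1.16 kb before the Lefty1 start had 8.99 and 7.43, at percentiles 71.5 and 59.6. The Tdgf1 peak, chr9:110946038-110946206, had 4.99 and 3.64, at percentiles 23.3 and 3.18. The Acvr2b promoter, by contrast, had 10.9 and 10.2, the highest of the members and above 80.0% of the mESC− list. Smad3 followed with 10.0 and 8.13, although its transcript level was the lowest of the listed members. The fold enrichment is relative to the pile-up expected from the local background, so that a low value does not mean few reads. The Tdgf1 promoter had a pile-up of 48 in mESC+ over 8.82 expected, and that of Acvr2b 45 over 3.23 expected.

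At each of these 8 promoters, the interval of the depth-scaled pile-up ratio (mESC− over mESC+) held 1. The Nodal pile-up was 32 in mESC+ and 22 in mESC−, a ratio of 0.781 (0.432 to 1.39). Tdgf1 had the lowest ratio, 0.615 (0.366 to 1.01), with a pile-up of 48 and 26. A further shared Tdgf1 peak reached into the same 1 kb window, with 54 and 46 and a ratio of 0.968 (0.639 to 1.46). Its fold enrichment in mESC+ was slightly lower, 4.72 against 4.99, so it did not stand for the promoter. In mESC− it was the higher of the 2, 5.51 against 3.64. Which ratio stands for Tdgf1 thus depended on the choice by mESC+ strength. Tdgf1 was followed by Foxh1 with 39 and 22 and a ratio of 0.641 (0.362 to 1.11). Of the 8 promoters, 7 thus had a lower scaled pile-up in mESC−, none by more than its counting error. Over all shared peaks 55.3% were lower on this scale. The promoter peaks were picked by their strength in mESC+, which can lower the ratio, and the shared peaks were not. Smad3 had 35 and 23 (ratio 0.747, 0.421 to 1.30), and Smad7 had 47 and 35 (0.846, 0.530 to 1.34). The Skil promoter gave 52 and 39 (0.852, 0.548 to 1.32), and that of Acvr2b 45 and 36 (0.909, 0.570 to 1.44). Lefty1 was higher on this scale, with 29 and 28 and a ratio of 1.10 (0.629 to 1.91). The direction of the small differences depended on the scale: by the centred log2 ratio of the fold enrichments, 6 of the 8 were lower, with Lefty1 at −0.04, Acvr2b at 0.0038 and Smad7 at 0.03.

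**Figure D2:**
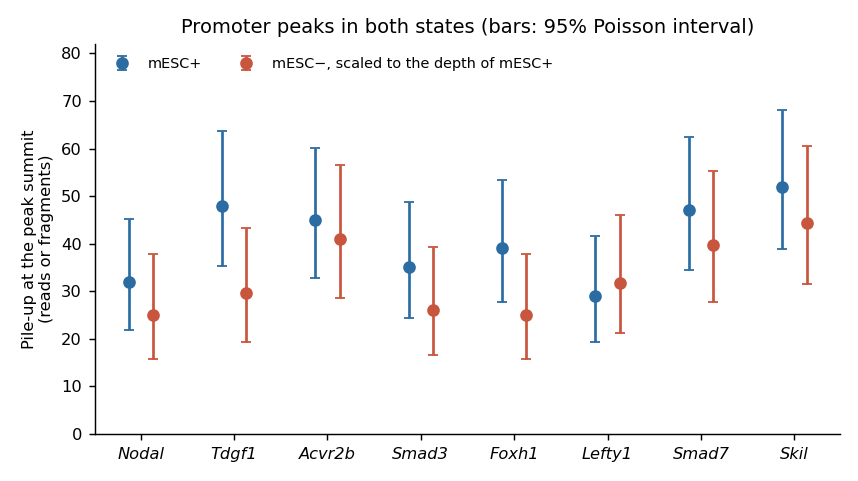
Pile-up at the summit of the promoter peak (y axis, reads or fragments) for the 8 genes with a peak in both lists. The promoter peak is the strongest by fold enrichment in mESC+. Points are mESC+ (blue) and mESC− divided by the depth ratio of 0.880 (red), with exact 95% Poisson intervals. The 2 intervals overlap for each gene, and the mESC− point is the lower one in all but Lefty1.

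Around the genes, most peaks were shared. Of the 358 peaks, 235 were in both lists, 86 in the mESC+ list alone and 37 in the mESC− list alone. The share in the mESC+ list alone, 24.0% (exact 95% binomial interval 19.7 to 28.8%), was close to the 23.7% of all peaks. The share in the mESC− list alone, 10.3% (7.38 to 13.96%), was close to the 11% of all peaks. The surplus of mESC+ peaks around the pathway genes was thus close to that over the genome, where the mESC+ library was the deeper one. Peaks of a single list were weak: those of mESC+ alone had a median pile-up of 12 (6 to 29) and those of mESC− alone of 9 (6 to 23), whereas shared peaks had 24 (6 to 88) in mESC+ and 19 (6 to 70) in mESC−. Of the 358 peaks, 169 lay in introns, 62 in exons and 127 between genes, and 139 had a member as the gene with the nearest start. The windows of Lefty1 and Lefty2 overlap and share 42 of these peaks.

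**Figure D3:**
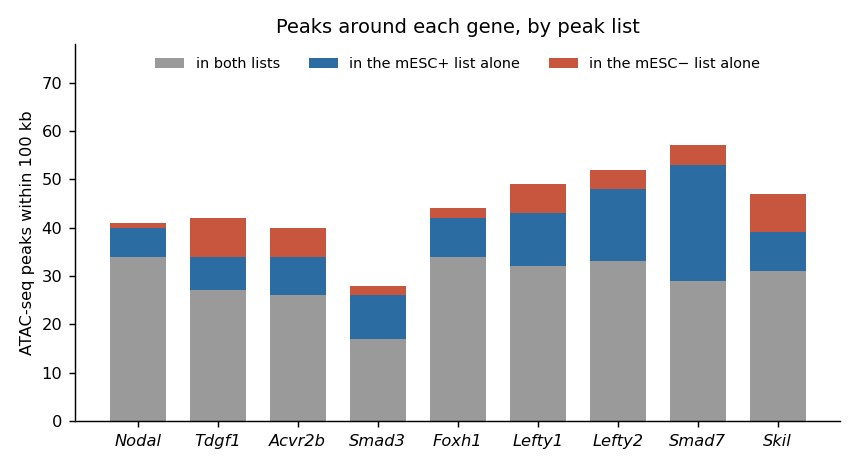
Number of ATAC-seq peaks (y axis) within 100 kb of each gene body, split into peaks in both lists (grey), in the mESC+ list alone (blue) and in the mESC− list alone (red). Smad7 has 24 blue peaks of 57 and Nodal 6 of 41, while Tdgf1 and Skil carry 8 red peaks each.

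The members differed in these shares. Around Nodal, 34 of 41 peaks were shared, 6 (14.6%) were in the mESC+ list alone and 1 (2.44%) in the mESC− list alone. Around Smad7, 29 of 57 peaks were shared and 24 (42.1%, exact 95% binomial interval 29.1 to 55.9%) were in the mESC+ list alone, which put Smad7 at percentile 98.3 of the 18270 protein-coding genes with at least 10 peaks. Their median was 22.0% and their 95th percentile 36.8%. Smad3 had 9 of 28 (32.1%, percentile 88.1) and Lefty2 15 of 52 (28.8%, percentile 79.2). At the other end, Tdgf1 had 8 of 42 peaks (19.0%, 8.60 to 34.1%) in the mESC− list alone, at percentile 92.3, and Skil 8 of 47 (17.0%, percentile 87.3). Acvr2b had 8 of 40 peaks in the mESC+ list alone and 6 in the mESC− list alone, Foxh1 8 and 2 of 44, and Lefty1 11 and 6 of 49. Most genes thus lay inside the range of other genes on both shares, with Smad7 beyond the 95th percentile on the first. These shares rested on weak peaks. When peaks with a pile-up under 20 were left out of each list, a limit not scaled for depth under which a shared peak can become one of a single list, the mESC+ list alone held 8 of 24 peaks around Nodal (33.3%), 11 of 22 around Smad7 and 0 of 3 around Smad3, and the mESC− list alone held 1 of 22 around Tdgf1 (4.55%). Over all peaks, the shares under this limit were 29.0% and 5.04%. Among protein-coding genes with at least 10 peaks under the limit, Smad7 (50%) was at percentile 93.3 on the first share and Nodal at 67.4. On the second share, Tdgf1 was at percentile 56.4.

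The strength of the shared peaks was compared between the states as well. The median log2 ratio of their fold enrichments (mESC− over mESC+), centred on the median of all 117470 shared peaks, was −0.03 over the 235 peaks (95% interval −0.06 to 0.03 from the order statistics). Single peaks ranged from −0.91 to 1.32, and the 5th and 95th percentile of all shared peaks were −0.57 and 0.54. A fold enrichment at least 1.5-fold higher in mESC− was found for 4 of the 235 peaks, against 4.05% of all shared peaks, and one at least 1.5-fold lower for 6, against 4.61%. With the depth-scaled pile-up in place of the fold enrichment, 5 peaks were at least 1.5-fold higher (5.37% of all) and 16 at least 1.5-fold lower (7.83% of all). These counts amount to 2.13% and 6.81% of the 235 peaks, neither above its background. Whatever the size of the difference, 144 of the 235 peaks (61.3%, exact 95% binomial interval 54.7 to 67.5%) were lower on this scale, and the interval includes the 55.3% of all shared peaks.

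The interval of the scaled pile-up ratio was wholly above 1 for 1 of the 235 peaks (0.364% of all shared peaks) and wholly below 1 for 2 (0.62% of all). These intervals were not adjusted for the number of peaks. The peak above 1 is not described here. One peak below 1, chr9:110951483-110951777, lies 5.49 kb before the Tdgf1 start on an exon of the neighbouring Lrrc2, with a pile-up of 56 in mESC+ and 29 in mESC− (ratio 0.588, 0.362 to 0.937). The other, chr15:76684175-76684354, lies 14.3 kb before the Foxh1 start in an intron of Ppp1r16a, with 20 and 7 (ratio 0.398, 0.142 to 0.979). Both overlap other genes, and which gene each serves was not measured.

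**Figure D4:**
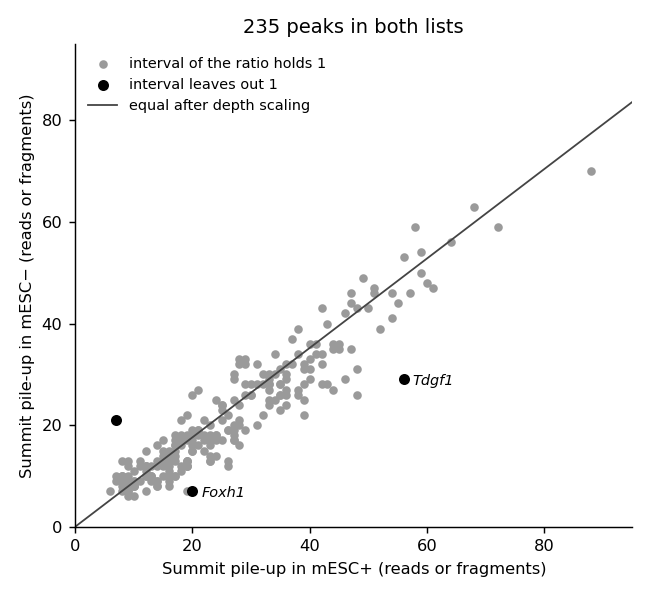
Summit pile-up in mESC+ (x axis) against mESC− (y axis), in reads or fragments, for the 235 peaks in both lists, each point a peak and the line equality after scaling by the depth ratio of 0.880. Points follow the line, and the 3 black points are those whose 95% interval leaves out a ratio of 1. The 2 below the line are labelled by the member whose window holds them, with pile-ups of 56 and 29 (Tdgf1) and 20 and 7 (Foxh1).

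Nodal (ENSMUSG00000037171, chr10:61417972-61425338, plus strand) had 10 peaks to which it was the nearest gene. Upstream of the gene, the peak chr10:61415593-61416534, with its summit 2.01 kb before the start, had a pile-up of 47 in mESC+ and 46 in mESC− (ratio 1.11, 0.724 to 1.71). Inside the gene, on an exon 5.45 kb past the start, a further peak had 41 and 36 (ratio 0.998, 0.619 to 1.600). Both had a higher pile-up than the promoter peak, with intervals that held 1. The 2 proximal peaks of the mESC+ list alone, 1.19 kb before and 6.74 kb past the start, had a pile-up of 23 and 20. The strongest peak of the window, 57.7 kb past the start on an exon of D830039M14Rik, had a fold enrichment of 17.8 and 18.4. No peak nearest to Nodal was in the mESC− list alone.

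Tdgf1 (ENSMUSG00000032494, chr9:110939603-110946158, minus strand) had 8 nearest peaks. Its strong upstream site reached into the 1 kb promoter window, with the summit 1.46 kb before the start. It had a pile-up of 54 in mESC+ and 46 in mESC− (ratio 0.968, 0.639 to 1.46). Between this site and the promoter peak, 0.670 kb before the start, a peak of the mESC− list alone had a pile-up of 21. Peaks of the mESC+ list alone lay 1.78, 7.33 and 8.08 kb past the start, with a pile-up of 24, 24 and 18. Of the other 7 peaks of the mESC− list alone, 6 lay between 56.0 and 96.7 kb past the start, in or at the genes Als2cl, Tmie and Prss46, with a pile-up of 9 to 15.

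The other signal-receiving genes had their own patterns. Acvr2b (ENSMUSG00000061393, chr9:119402118-119434995, plus strand) carried 12 peaks on its body, 7 of them in both lists, 4 in the mESC+ list alone and 1 in the mESC− list alone. Smad3 (ENSMUSG00000032402, chr9:63646767-63757994, minus strand) had only 9 peaks on a body of 111 kb, 4 of them in both lists and 4 in the mESC+ list alone. Its intronic peak 16.0 kb past the start had a pile-up of 19 and 7 (ratio 0.419, 0.149 to 1.04), with an interval that holds 1. The strongest Smad3 peak lay 45.5 kb before the start, with a pile-up of 61 and 47 (ratio 0.875, 0.585 to 1.30). Foxh1 (ENSMUSG00000033837, chr15:76668225-76669948, minus strand) is a short gene among others, and only 3 of the 44 peaks in its window had its start as the nearest. Besides its promoter peak, a peak 0.275 kb before the start was in the mESC+ list alone with a pile-up of 25, whereas the peak 1.65 kb before the start was shared, with 47 and 44 (ratio 1.06, 0.689 to 1.64).

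Lefty1 (ENSMUSG00000038793, chr1:180935022-180938400, plus strand) and Lefty2 (ENSMUSG00000066652, chr1:180893108-180899103, plus strand) are neighbours, and the highest mESC+ pile-up of both windows was in a peak between them. This peak, chr1:180924625-180925468, with the summit 10.1 kb before the Lefty1 start, had a fold enrichment of 11.0 in mESC+ and 10.0 in mESC− and a pile-up of 72 and 59 (ratio 0.931, 0.648 to 1.33). It was the only peak of the 9 windows with a pair of matches to the FOXH1 motif AATNCACA (N is any base, either strand) in the 300 bp around the summit. The stretch chr1:180924791-180924924 (GRCm38, plus strand, 5′ to 3′) is shown because it holds both matches, in capitals. They read AATCCACA on the minus strand, and their leftmost bases on the plus strand lie 127 and 64 bp before the summit.

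Lefty1 and Lefty2 intergenic peak: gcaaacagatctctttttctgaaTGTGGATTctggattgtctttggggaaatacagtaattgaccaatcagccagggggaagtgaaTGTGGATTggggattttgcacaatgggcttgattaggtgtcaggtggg

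Closer to the genes, the Lefty peaks also differed by less than their counting error. The Lefty1 peak 1.16 kb before the start had a pile-up of 50 and 43 (ratio 0.977, 0.635 to 1.499). A peak 4.37 kb before the Lefty2 start had 68 and 63 (ratio 1.05, 0.735 to 1.505), and another 11.1 kb past it 58 and 59 (ratio 1.16, 0.791 to 1.69). The peak on an exon of Lefty2, 1.40 kb past the start, had 31 and 32 (ratio 1.17, 0.693 to 1.99). Each of the 4 intervals held 1. Within 10 kb past the Lefty1 start, 3 peaks were in the mESC+ list alone, with a pile-up of 23, 18 and 14. Near Lefty2, 2 peaks were in the mESC− list alone, with 23 at 5.00 kb before the start and 9 at 1.76 kb past it.

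Smad7 (ENSMUSG00000025880, chromosome 18 from 75367529 to 75395935, plus strand) was the gene with the nearest start for all 57 peaks in its window, although some of them lay in other genes, such as Ctif. The many peaks of mESC+ alone were not the strong ones: their pile-up ran from 6 to 20 with a median of 11.5. Of the 11 peaks on the gene body, 7 were in the mESC+ list alone, 3 in both lists and 1 in the mESC− list alone. The 7 lay from 1.92 to 27.5 kb past the start with a pile-up of 13 to 20. The peaks with the highest pile-up and fold enrichment differed by less than their counting error, at 6.43 kb before the start, with 60 and 48 (ratio 0.909, 0.609 to 1.35), and at 74.5 kb past it in an intron of Ctif, with 44 and 35 (ratio 0.904, 0.563 to 1.44). Only the peak 37.7 kb before the start was past 1.5-fold in fold enrichment, with 26 and 12 (ratio 0.524, 0.241 to 1.08).

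**Figure D5:**
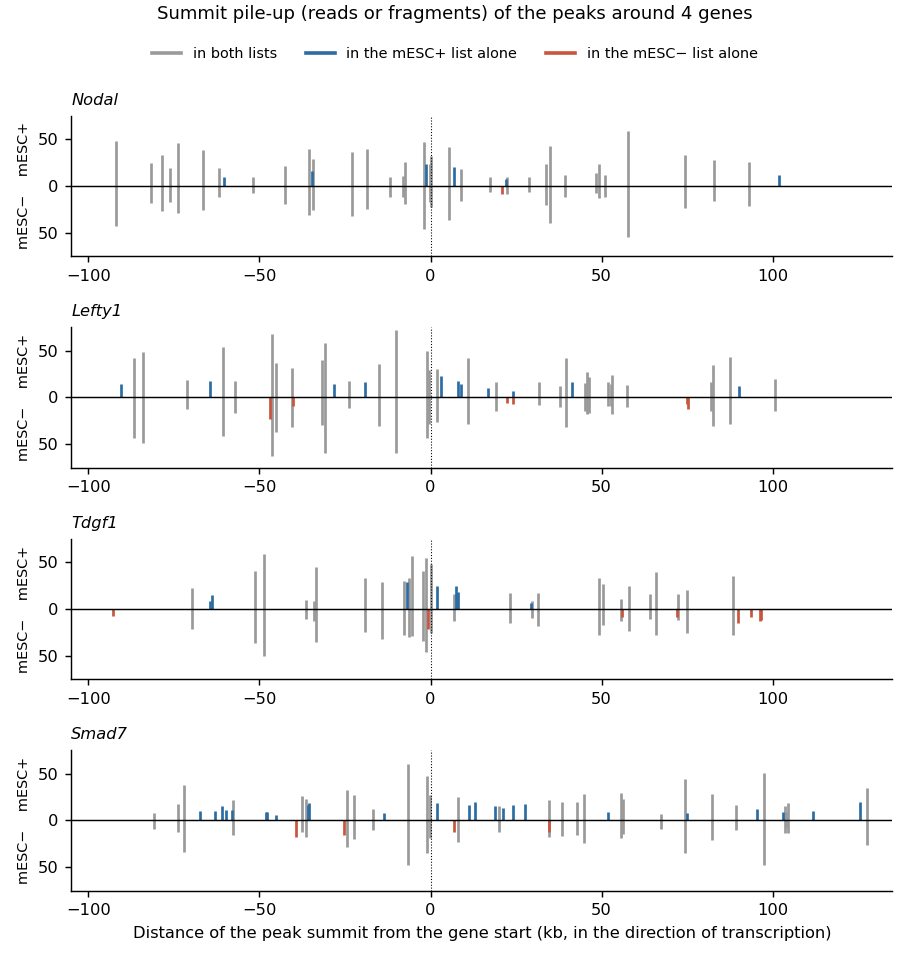
Summit pile-up (reads or fragments) against the distance of the summit from the gene start (kb) around Nodal, Lefty1, Tdgf1 and Smad7, with mESC+ drawn upward and mESC− downward. Grey bars are peaks in both lists, and blue and red bars those of the mESC+ or mESC− list alone. Many grey bars have a similar length in both states, as at 10.1 kb before Lefty1 (72 and 59), while others are shorter in mESC−, as at 5.49 kb before Tdgf1 (56 and 29), and the 24 blue bars around Smad7 are short, at 20 or less.

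Skil (ENSMUSG00000027660, chr3:31095058-31122577, plus strand) had 20 nearest peaks. A cluster of 5 peaks lay 4.55 to 7.24 kb before the start. In the cluster, the peak at 4.55 kb had a pile-up of 28 and 32 (ratio 1.30, 0.757 to 2.24), and that at 6.13 kb had 24 and 14 (ratio 0.663, 0.317 to 1.33). One peak of the cluster, at 4.92 kb, was in the mESC− list alone with a pile-up of 19. The peak at 5.48 kb, chr3:31089393-31089652, had 25 and 17 (ratio 0.773, 0.392 to 1.49). It is shown because its FOXH1 match, AATTCACA in capitals, begins 10 bp past the summit, closer than any other match in the 9 windows. The stretch is chr3:31089546-31089633 (GRCm38, plus strand, 5′ to 3′).

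Skil upstream peak: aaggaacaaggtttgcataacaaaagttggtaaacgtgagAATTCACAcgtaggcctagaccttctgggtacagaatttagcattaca

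In all, the FOXH1 motif was found in the 300 bp around the summit of 11 of the 358 peaks (3.07%, exact 95% binomial interval 1.54 to 5.43%), against 4.62% of all peaks. The 11 peaks lay in the windows of Lefty1, Lefty2, Foxh1, Smad7, Skil and Acvr2b, with none around Nodal, Tdgf1 or Smad3. The SMAD palindrome GTCTAGAC was found in none of the 358 stretches (up to 1.03% by the exact binomial interval) and in 0.308% of all peaks. When the whole peak was searched, 3 of the 358 held it (0.838%, 0.173 to 2.43%), against 0.293% of all peaks. One of them was the peak 4.37 kb before the Lefty2 start. The others lay in the Smad7 window, among them the peak that stood for the Smad7 promoter. These are matches of letters, and binding was not measured.

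A DR5 motif, the paired half-site with a spacing of 5 bases to which RA receptors bind, was found in 2 of the 358 stretches (0.559%) and in 0.323% of all peaks. One was a peak of the mESC− list alone, chr1:181010081-181010311, 75.2 kb past the Lefty1 start in an intron of Ephx1. It had a fold enrichment of 7.63 and a pile-up of 12, and was the strongest peak by fold enrichment of the mESC− list alone around Lefty1. The other was in both lists, chr15:76745326-76745552, 75.5 kb before the Foxh1 start in an intron of Arhgap39, with a pile-up of 26 and 22 (ratio 0.961, 0.519 to 1.76). It had the highest fold enrichment of the Foxh1 window in both states, 15.2 and 13.6. Both are shown because they are the only DR5 matches in the 358 stretches of 300 bp around a summit. No other spacing of the half-sites was searched. The matches are in capitals in the stretches chr1:181010123-181010219 and chr15:76745348-76745444 (GRCm38, plus strand, 5′ to 3′). The nearest gene starts to these 2 peaks belong to other genes. When the whole peak was searched, 3 of the 358 held the motif (0.838%, 0.173 to 2.43%), against 0.310% of all peaks. The third was the peak chr9:119457299-119457730 in an intron of Exog in the Acvr2b window.

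Ephx1 intron peak: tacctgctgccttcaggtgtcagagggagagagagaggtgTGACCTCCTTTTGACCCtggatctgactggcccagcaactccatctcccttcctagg

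Arhgap39 intron peak: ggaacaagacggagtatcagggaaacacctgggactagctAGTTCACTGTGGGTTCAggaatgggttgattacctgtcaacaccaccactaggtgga

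Finally, the 327 dynamic enhancer regions were examined. These are regions whose enhancer probability, a fraction computed by the authors from H3K4me1, H3K4me3 and H3K27ac, differs between the states, 186 of them active in mESC+ (cluster 1) and 141 in mESC− (cluster 2). The list is the paper's call at its default minimum difference in probability. The paper reports many more regions at a lower minimum, and those were not examined here. None of the 327 lay within 100 kb of any of the 9 genes (0 of 9, exact 95% binomial interval up to 33.6%), and 4.54% of protein-coding genes had such a region. With 9 genes, the interval includes the background share. The closest was a cluster 2 region 0.535 Mb from Acvr2b, chr9:119970301-119971400 in Cx3cr1, whose probability was 0.0091 in mESC+ and 0.832 in mESC−. From Nodal, the nearest was a cluster 1 region at 1.05 Mb in Vps26a, whose probability went from 0.780 (mESC+) to 0 (mESC−). Lefty1 and Lefty2 shared theirs, a cluster 1 region in Enah at 1.01 and 1.04 Mb with a probability of 1 and 0.115. Around Smad7 and Foxh1 the nearest were cluster 2 regions at 0.775 and 0.913 Mb. Tdgf1, Skil and Smad3 had none closer than 1.82, 3.53 and 5.43 Mb. At such distances, a link to the pathway genes was not tested.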

How the data were processed

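The members and the gene lists were chosen with earlier results of these data known. Per the labels and the paper's methods, E14 cells of both states were profiled by RNA-seq (3 libraries each), Omni-ATAC-seq (1 each) and ChIP-seq. For RNA-seq, the authors aligned paired-end reads to GRCm38 by BWA-MEM and ran DESeq2, and the deposited table holds a mean normalised signal (the mean count over the 6 libraries after division by size factors), a fold change with its error and test values. How its 2189 genes were selected is not given in the sources used here. Columns of fold changes and p-values hold the authors' own comparison and were not used, nor was the p-value of each dynamic region. For ATAC-seq, the authors used BWA-MEM for mapping, SAMtools against duplicates and MACS2 for the peaks of each single library. The deposited lists give a fold enrichment (a ratio to local background) and −log10 p and q values. Parameters of MACS2, such as a shift of the reads, are not given in the sources used here. For ChIP-seq, the authors mapped with STAR (2.5.1b in the submitters' processing notes) and removed duplicates with Picard, and CRUP gave the deposited enhancer probability, a fraction between 0 and 1.

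Peaks of both lists were merged where they overlapped by at least 1 bp and assigned to a gene when within 100 kb of its body (GENCODE M21, GRCm38). The strongest peak of mESC+ by fold enrichment within 1 kb of the start stood for the promoter. The summit pile-up was the whole number that gives both the fold enrichment and the −log10 p, within a relative tolerance of 0.002, a step chosen after seeing the data. Read totals are unknown. Motifs were searched in 300 bp of GRCm38.p6 (RefSeq) around each summit. By rule, all 9 genes were named. The promoter peak of each, its strongest peak in each list and its strongest peak of a single list by fold enrichment were also set by rule. Only some of these peaks are described above. The other peaks described were chosen after their values were seen, as were the few described genes of the pathway list that lack a row. The peak merging, pile-up recovery and motif search passed 6 of 6 checks with simulated data, in which 4802 of 4802 pile-ups were recovered. The tools were SciPy 1.17.1, NumPy 2.4.6, pysam 0.24.0, pandas 2.3.3 and matplotlib 3.10.9 under Python 3.11.15. The description of a peak and the listing of an RA target gene are not reported here.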

Additional observations from a re-analysis of the deposited data

How the results depend on the processing

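Of 58 alternative values, 49 stayed within the interval of the reported value or within 1.5 times a reported count, and 9 moved. The share of peaks in the mESC+ list alone became 30.9% over the 139 peaks nearest to a member (23.7% of all peaks). Smad7 gave 57 of these peaks, 24 of them in the mESC+ list alone. With a reciprocal overlap the share became 29.3% (28.8% of all peaks). The share in the mESC− list alone became 4.29% at a −log10 q of at least 10 (7.01% of all peaks), 17.8% with a reciprocal overlap (17.7% of all) and 3.73% at a pile-up of at least 20 (5.04% of all, chosen after seeing the data). The median log2 ratio became −0.12 without centring (−0.09 over all peaks) and −0.086 from the scaled pile-up (−0.04 over all, chosen after seeing the data). At a −log10 q of at least 10, the genes with a promoter peak in both lists were 5 of 9, without Nodal, Foxh1, Lefty1 and Lefty2. The share of all genes at this limit was not at hand. The FOXH1 share became 0.838% in 100 bp (1.40% of all peaks). Omitting each gene in turn gave 20.6 to 25.2% and 9.18 to 11.4% for the shares and −0.04 to −0.01 for the median, the lowest first share being that without Smad7. No paired analysis was possible because the values of single RNA-seq libraries were not used and ATAC-seq and ChIP-seq had 1 library per state and mark. A single ATAC-seq library per state leaves differences between cultures unmeasured, and a pile-up under 20 gives intervals that only a large change could leave.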
